A study of Xenopus laevis with 18 samples.

Results

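Of the 31357 gene models measured in frog embryos, 234 (0.746%) were low in the cleaving embryo, reached their highest level in the neurula between stages 14 and 20, and were low again in the later tailbud. They were selected on the deposited values themselves. A model was taken if its maximum over all libraries was at least 10 TPM (a unit that gives each transcript's share of all those measured, corrected for length) and lay at stage 14, 16, 18 or 20, if the mean of stages 0, 2, 6, 6.5 and 7 was at most 20% of that maximum, and if the mean of stages 26, 30 and 33 was also at most 20% of it. The stage of the maximum, its height and the low levels at both ends are therefore a description of how the models were chosen and carry no test. The level at stages 8 to 12 and at stage 23 entered the rule only in that it could not exceed the maximum.

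The embryos were whole Xenopus laevis (African clawed frog) of the J strain, raised in dilute salt solution with an antibiotic and frozen at 18 stages of the Nieuwkoop-Faber series, the standard numbering of Xenopus development. There was 1 poly(A)-selected library a stage, so no stage has a replicate check, and nothing in the labels says whether the stages came from the same clutch. Stages 0 to 7 precede broad activation of the embryo's genome, stages 8, 8.5 and 9 are blastulae, 10 and 12 gastrulae, 14 to 20 neurulae and 23 to 33 tailbud embryos.

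Neurulation is the period in which the neural plate thickens, folds and closes into the neural tube. At the same time the neural crest forms at the border of the plate, somites begin to segment beside the notochord, and the epidermis sets aside its ciliated and secretory cells. Many regulators of such steps are known to be transcribed for a short time and then shut off, which gives a transient course in RNA of the whole embryo. The models are known by identifier only. The deposited values come without symbols and 0 of the identifiers occurred in the reference table of names, so no gene, pathway or cell type can be attached to them here and no sequence is shown. In RNA of whole embryos, fewer cells of a type and less RNA per cell cannot be told apart, and in poly(A)-selected RNA a shorter tail also lowers a value.

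Sequencing depth is unknown, since TPM keeps none. Synthetic spike-in RNAs give the error of preparation and sequencing: 37 of them that averaged 10 TPM or more and were never 0 had a median SD of 0.22 on the log2 scale over the 4 neurula libraries. Over all 18 the median SD was 0.31. Both were taken on the deposited spike-in values, which had been divided by class-specific factors from stage 6 on only. The value for all 18 therefore also holds that change of scale and is no plain measure of error. Over stages 14, 16, 18 and 20, 10367, 9417, 9322 and 6491 models were listed at 0. Stages 20, 23, 26, 30 and 33, like stage 0, have column names ending in rr, a mark left unexplained by the labels, so handling and stage cannot be told apart between stages 18 and 20. In the libraries of stages 2, 6, 8.5, 10 and 30, 2 models that are listed at 0 elsewhere took between 3.84% and 43% of the total. The remaining models are lower by that share there, and none of the 4 neurula libraries is among them.

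The 234 models were few among those that peaked in the neurula. In all, 2434 models had a maximum of at least 10 TPM at stage 14, 16, 18 or 20. Of these, 1016 met the early limit but stayed above 20% of their maximum in the late tailbud, 26 missed only the early limit, and 1158 missed both. The transient models were thus 9.61% of the neurula-peaking ones.

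The limits cut through a continuum. The member closest to the late limit had a late mean of 19.8% of its maximum and the nearest model outside it 20.1%, and 69 members had a late mean over 15% while 59 models just outside lay between 20% and 25%. The early limit separated models at 19.2% and 20% from models at 22.3% and 22.6%. The 2 members with the lowest maximum stood at 10 TPM, and the 2 nearest models outside reached 9.71 TPM. With TPM scaled to the spike-ins, whose share of the total was 6.41% at stage 14 and 1.31% at stage 33, the rule took 134 models, of which 97 were among the 234.

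**Figure D1:**
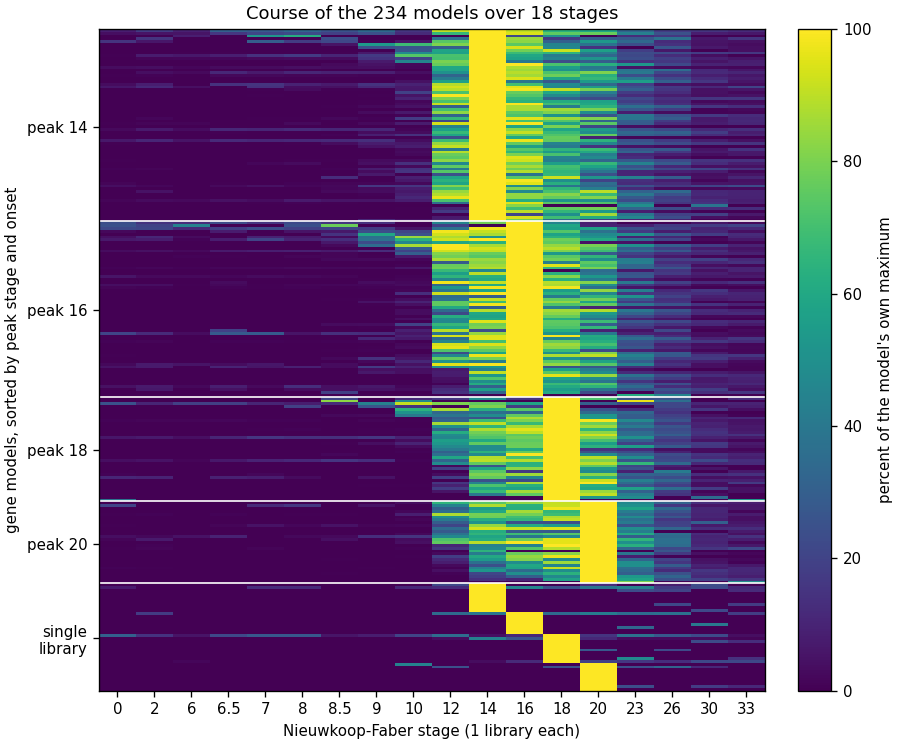
Each row is 1 of the 234 gene models and each column 1 stage in developmental order; colour gives TPM as a percent of the model's own maximum. The upper 4 blocks hold the 196 models that reached 50% of their maximum in more than 1 library, ordered by peak stage and by onset, and the lowest block holds the 38 models that did so in 1 library only.

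Most of the pulses were broad, but 38 of the 234 rested on a single library. Counting the stages at 50% or more of the maximum, 155 members had 3 to 5 such stages, 35 had 2, 5 had 6 and 1 had 7. The remaining 38 were at that level only in the library of their peak, and these single-library members were spread evenly over the peak stages, with 10, 8, 10 and 10 of them at stages 14, 16, 18 and 20. For 21 of them the model was listed at 0 in the other 17 libraries, with a maximum between 10 and 169.7 TPM. XeXenL6RMv10013560m is the highest of these, at 169.7 TPM at stage 14 and listed at 0 everywhere else. XeXenL6RMv10022369m is also a single-library member by this count but has a graded course, with 6.38, 81.1, 48.7, 185, 20.7 and 5.27 TPM over stages 12, 14, 16, 18, 20 and 23.

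Exact zeros can be failed estimates, in particular where reads are divided among near-identical models. A value of 0 in at least 1 of the 4 neurula libraries was found in 33 of the 38 single-library members and in 11 of the other 196. With 1 library a stage a brief pulse and an unstable estimate cannot be told apart for such models, so the median course below is given without and with the 38.

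The level was low before gastrulation in nearly all members. In 131 of the 234 the model was listed at 0 in each of the 5 early libraries, and in 201 the early mean was under 1 TPM. The median member of the 196 stood at 0.156% of its maximum at stage 9 and 2.16% at stage 10, then at 47.4% at stage 12 (interquartile range over models 21.6% to 74.9%). Over stages 14, 16, 18 and 20 the medians were 85.4%, 86.1%, 72.5% and 59.9%, and over stages 23, 26, 30 and 33 they were 28.8%, 17.8%, 7.98% and 6.5%. Over all 234 members the medians were lower, at 1.15% and 37.8% at stages 10 and 12, at 79.2%, 82.5%, 69% and 57.2% over stages 14, 16, 18 and 20, and at 26.4% at stage 23. With or without the 38, the median was highest at stage 16 and lower at each later stage than at the one before. Together the 234 models held 0.0549% of the gene-model TPM at stage 0 and 0.265% at stage 10. Over stages 12, 14, 20 and 33 their share was 1.75%, 2.51%, 1.82% and 0.165%. A single model, XeXenL6RMv10032633m, accounted for 0.857 of the 2.51 percentage points at stage 14. Its part was larger before that, with 0.0345 of 0.0549 at stage 0, 0.187 of 0.265 at stage 10 and 0.883 of 1.75 at stage 12.

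**Figure D2:**
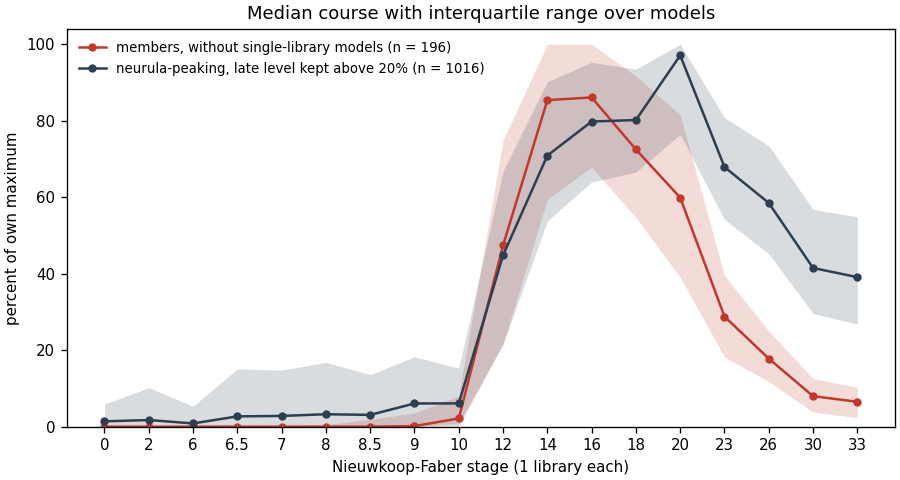
TPM as a percent of each model's own maximum (vertical axis) over the 18 stages, as the median (line) and interquartile range (band) over models, for the 196 transient members at 50% of their maximum in more than 1 library and for the 1016 neurula-peaking models that met the early limit and stayed above the late one. At stage 12 the medians are 47.4% and 44.8%, and at stage 23 they are 28.8% and 67.9%; over all 234 members, which are not drawn, they are 37.8% and 26.4%.

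The stage of onset depended on the level at which it was read. Onset was taken as the first stage from 8 on at which a model reached 20% of its maximum. It lay at stage 12 in 125 members (53.4%), at stages 8 to 10 in 33 and at stages 14 to 20 in 76. Of those 76, 47 were first at this level at stage 14. Read at 50% of the maximum, onset lay at stage 12 in 84 members, at stages 8 to 10 in 12 and at stages 14 to 20 in 138, so that the neurula stages then held the most. Read at 10%, stage 12 held 110 members and stages 8 to 10 held 63. Without the single-library members the counts were 122 at stage 12, 31 at stages 8 to 10 and 43 at stages 14 to 20, with 6 of the 196 first at 20% of their maximum after stage 14. No stage between 10 and 12 was sampled, and stage intervals are unequal, so these counts are not rates.

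The 1016 neurula-peaking models that stayed on give the nearest comparison, since they met the same early limit and differ in the rule only at the tailbud. Their median was at 6.09% and 44.8% of the maximum at stages 10 and 12, at 70.9%, 79.8%, 80.2% and 97.1% over stages 14, 16, 18 and 20, and at 67.9% at stage 23. At stage 12 the order of the sets depended on the single-library models: the transient median was 47.4% without them and 37.8% over all 234, against 44.8%. With or without them, the transient median was above that of the models that stayed on at stages 14 and 16 and below it from stage 18 on. These medians describe the sets and were not tested. The maximum lay at stage 14 in 33.3% of the transient models and in 16.3% of those that stayed on, at stage 16 in 29.9% and 19.4%, at stage 18 in 20.1% and 17.9%, and at stage 20 in 16.7% and 46.4%. It lay at stage 20 also in 47.7% of the 1158 models that missed both limits, and in 19.2% of the 26 that missed only the early one. The library of stage 20 is the only neurula library with the rr mark, and had 6491 models at 0 against 9322 at stage 18. Whether this bears on the peaks there was not tested. The late limit compares stages 26 to 33 with the maximum, so the stage of the maximum is not independent of the rule. Onset at stages 8 to 10 was found in 14.1% of the transient models and in 33.3% of those that stayed on. RNA already present before stage 8 counts as onset here. At stage 7, 35 of the 234 transient models and 501 of the 1016 others were at 1 TPM or more, so these shares do not measure when a model was switched on. Single-library courses made up 16.2% of the transient models and 0.295% of those that stayed on. The latter had to average over 20% of their maximum in the late tailbud, which leaves little room for such a course. This difference therefore follows largely from the rule. The median of the maximum was 34.6 TPM in the transient set and 33.2 TPM in the set that stayed on.

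**Figure D3:**
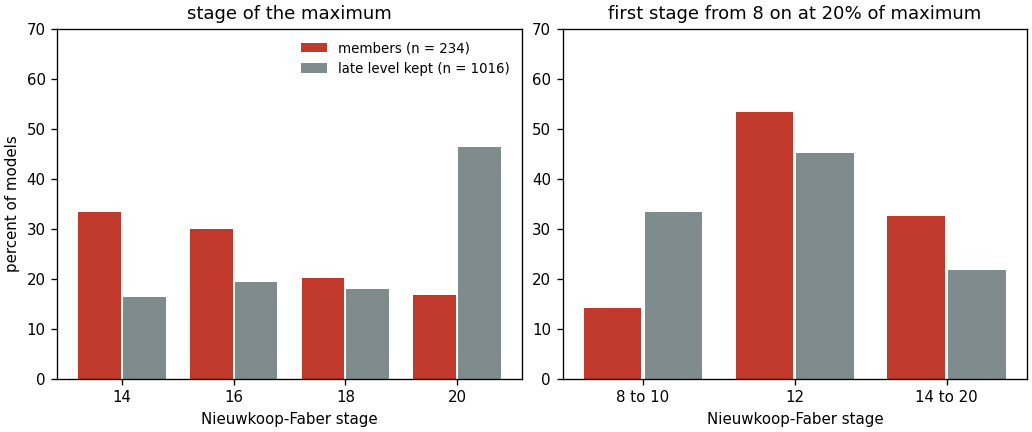
Percent of models (vertical axis) by the stage of the maximum (left) and by the first stage from 8 on at 20% of the maximum (right), for the 234 transient models and the 1016 neurula-peaking models that stayed above the late limit. Peaks at stage 20 make up 16.7% of the transient models and 46.4% of the others, and onset at stage 12 is the most common in both, with 53.4% and 45.1%. In the 1158 models that missed both limits, which are not drawn, peaks at stage 20 make up 47.7%, and the stage of the maximum is not independent of the rule.

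Split by the stage of the maximum, members differed in their level at the flanking stages, which the split itself favours, since a model chosen to peak at stage 14 tends to be nearer its maximum at stage 12. These values are therefore a description only. Among the 196, the 68 models peaking at stage 14 stood at a median of 66.8% of their maximum at stage 12, the 62 peaking at stage 16 at 53.9%, the 37 peaking at stage 18 at 32.2% and the 29 peaking at stage 20 at 21%. At stage 23 the same 4 sets stood at 25.3%, 26.4%, 31.2% and 42.4%. The first stage after the peak at which a model was under 50% of its maximum was stage 16 for 7 models, 18 for 26, 20 for 48, 23 for 100 and 26 for 15. At stage 23, 19 of all 234 members were still at 50% or more and 54 were already under 10%.

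The heights of the pulses spanned almost 3 orders of magnitude. The quartiles of the maximum were 16.6, 34.6 and 76.1 TPM, 45 members reached 100 TPM, 6 reached 500 TPM and 3 reached 1000 TPM. For each peak stage the 2 highest models that were not single-library members are described here.

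At stage 14 the highest was XeXenL6RMv10006630m. It was at or under 7.9 TPM through stage 9, at 28.8 TPM at stage 10 and 1254 TPM at stage 12. In the neurula libraries, in the order of stages 14, 16, 18 and 20, it had 2991, 2822, 1745 and 1995 TPM, and over stages 23, 26, 30 and 33 it had 1238, 672, 369.8 and 234 TPM. XeXenL6RMv10013284m came second. It had 2.62 and 118 TPM at stages 10 and 12, 689, 621, 457 and 372 TPM in the neurula libraries, and 55.2 and 22.5 TPM at stages 23 and 26. Both were highest at stages 14 and 16, but the level at stage 23 was still 41.4% of the maximum in XeXenL6RMv10006630m and 8.02% in XeXenL6RMv10013284m.

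At stage 16 the highest of all 234, XeXenL6RMv10032633m, differed from most in having a sizeable early level. It lay between 239.5 and 757 TPM in the 5 early libraries and had 1128 and 1777 TPM at stages 9 and 10. From there it had 8229, 8025, 8819.5, 7067 and 6042 TPM over stages 12, 14, 16, 18 and 20, then 3174, 2419.8, 1182 and 561 TPM over stages 23, 26, 30 and 33. Its values at stages 12 to 18 form a plateau rather than a peak. XeXenL6RMv10013285m had 5.92 and 312 TPM at stages 10 and 12 and 588, 602, 591 and 218 TPM over the neurula stages, and was down to 34.4 TPM by stage 23 and 0.30 TPM by stage 33.

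At stage 18, XeXenL6RMv10016105m also had RNA early, with 10.2 to 40.9 TPM in the 5 early libraries. It had 23.5 and 118 TPM at stages 10 and 12, 188, 203, 259 and 211 TPM over the neurula stages and 130.1 TPM at stage 23. XeXenL6RMv10032737m came on later. It had 1.48 and 22.6 TPM at stages 10 and 12, then 178, 156, 248 and 154 TPM over the neurula stages and 64.3 TPM at stage 23. The values of both at stages 14 to 20 lie within a factor of 2, so the order of those stages has little behind it in single libraries.

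At stage 20, XeXenL6RMv10028029m had 17.1 and 600.4 TPM at stages 10 and 12, 897, 948, 1302 and 1443 TPM over the neurula stages, and 533 TPM at stage 23, with 58.8 TPM left at stage 33. XeXenL6RMv10024781m was listed at 0 at stage 9. It had 1.82 and 133 TPM at stages 10 and 12, 206, 183, 232 and 264 TPM over the neurula stages and 127 and 10.5 TPM at stages 23 and 33. Both had been on since stage 12, so a peak at stage 20 did not go with a late onset in these 2.

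**Figure D4:**
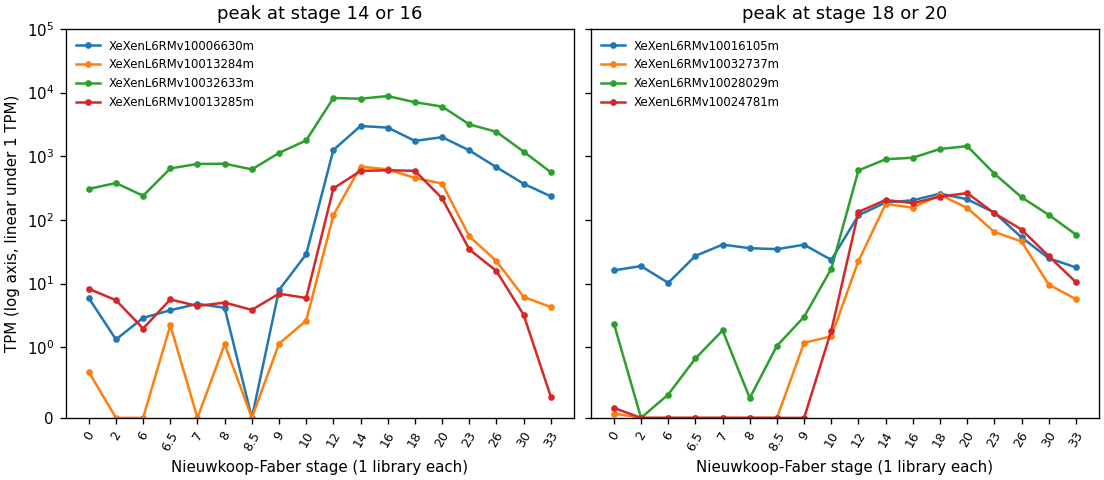
TPM (vertical axis, logarithmic above 1 TPM and linear below) of the 2 highest members for each peak stage over the 18 stages, 1 library each; peaks at stages 14 and 16 are on the left and at 18 and 20 on the right. Each of the 8 is higher at stage 12 than at stage 10, and lower at stage 23 than at stage 20.

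The first comparison asked how many members were already higher in the gastrula (stages 10 and 12) than in the blastula (stages 8, 8.5 and 9). The test was limma on log2(TPM + 1) with stages pooled into 6 classes (12 residual degrees of freedom), over 23880 models with at least 1 TPM in 2 libraries and with Benjamini-Hochberg adjustment. The stages of a class are successive time points, so these p-values measure a spread over stages, and a difference between stages of 1 class counts as error. That spread also draws on the early and tailbud libraries, where the rule holds members low. In 131 of the 234 every early library was listed at 0. The members' p-values, here and in the second comparison, are therefore not free of the rule. Of the 234 members, 213 could be tested, and the 21 left out were those above 0 in 1 library only. At an adjusted p under 0.05, 118 members rose and 0 fell (0 also fell at an unadjusted p under 0.05), against 5.5% of all tested models higher and 33.3% lower. At stage 9, however, 134 of the 234 members were listed at 0. Most members thus had little level to lose, so the 0 that fell is no result about them. The median difference was 1.88 on the log2 scale for the members and -0.66 for all models tested. None of the 118 was a single-library member. Under median-of-ratios scaling, where the median difference of all models tested was 0, the split over all models was 3390 higher and 2534 lower. There 123 members rose and their median difference was 2.27. Quantile normalization gave 2670 models higher and 3168 lower, with 115 members higher. Among the models that stayed on, 357 of 1016 (35.1%) rose and 6 fell. At stage 9, 575 of these 1016 and 62 of the 234 members were at 1 TPM or more, so the sets did not start from like levels. The rule requires that a member be higher in the neurula than early on, and so does it for the models that stayed on. The counts of models that rose therefore bear on when the difference appeared and not on whether it did.

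The difference rested largely on stage 12. Without that library the members' median difference was 0.33 on the log2 scale, against -0.73 for all models tested. Without stage 10 these medians were 3.14 and -0.57. Either way 1 library was left in the gastrula class. With the 2 classes fitted alone 112 members passed the filter and 60 of them rose, against 118 of 213 with all classes. The other members pass the filter only with libraries of other stages. XeXenL6RMv10032428m showed the largest rise, with 38.3 TPM at stage 10 and 125.6 at stage 12, against 0, 0 and 0.62 TPM at stages 8, 8.5 and 9. The log2 difference was 5.91 ± 0.58 (SE, limma adjusted p = 5.96e-06, range over the alternatives 8.63e-07 to 0.0075). It was already at 30.1% of its maximum at stage 10. XeXenL6RMv10006630m followed at 5.76 ± 1.09 (SE, limma adjusted p = 0.00078, range 6.51e-06 to 0.0425), with most of its difference between stages 10 and 12.

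The second comparison set the late neurula (stages 18 and 20) against the early neurula (stages 14 and 16). Of these libraries only that of stage 20 has a column name ending in rr, so handling and stage cannot be told apart within the late class. Every member has its maximum in one of these 4 libraries, and the late limit bears on the stage of that maximum. Neither single members nor the members' median are therefore free of the rule here. In the limma fit 5 members (2.14% of the 234) were called higher and 1 (0.427%) lower at an adjusted p under 0.05, against 1.12% of all tested models higher and 0.0879% lower. At an unadjusted p under 0.05 the numbers were 30 of the 213 members tested, 17 of them lower, against 1962 of all 23880 models, 218 of them lower. The median difference was -0.32 on the log2 scale for the members and 0.17 for all models. With TPM scaled to the spike-ins these medians were 0.38 and 0.70, so the sign of the members' median depends on the scale. It stayed under that of all models on both scales, which is a description only, since the rule favours this order. Only 2 of the 5 called higher were not single-library members. That is 2 of 196, near the 1.12% of all tested models, so the count called higher shows no trait of the members. Without the library of stage 14 the members' median difference was -0.35 on the log2 scale and that of all models 0.11. Without stage 20 these medians were -0.19 and 0.06. Either way 1 library was left in a class, so no calls are given.

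The few calls came mainly from models switching between 0 and a measurable level. XeXenL6RMv10043029m was at 66.95 TPM at stage 18 and 35.4 at stage 20, and listed at 0 at stages 14 and 16 (log2 difference 5.64 ± 1.17 SE, limma adjusted p = 0.0201, range over the alternatives 0.00545 to 0.203). It was also at 32.3 TPM at stage 23 and 23.4 at stage 30 but listed at 0 at stages 26 and 33. XeXenL6RMv10018598m was at 19.8 and 5.53 TPM at stages 18 and 20 and listed at 0 at stages 14 and 16 (3.54 ± 0.60 SE, limma adjusted p = 0.00661, range 5.44e-05 to 0.156). XeXenL6RMv10003207m was listed at 0 at stages 18 and 20, against 20.5 and 16.9 TPM at stages 14 and 16 (-4.29 ± 0.81 SE, limma adjusted p = 0.0114, range 0.00297 to 0.153), and came back to 10.1 TPM at stage 23 and 7.95 at stage 30. All 3 lost the call under at least 3 of 29 alternatives. A further member called higher, XeXenL6RMv10029970m, was singled out after its values were seen and had a graded course instead. It was at 130.0 and 225.1 TPM at stages 18 and 20, against 30.9 and 23.3 TPM at stages 14 and 16 (2.63 ± 0.48 SE, limma adjusted p = 0.0102). Its late mean of 44.4 TPM was 19.7% of its maximum, close to the late limit of 20%. No range over the alternatives was taken for it.

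Steps between neighbouring stages place the changes more finely, as a description without a test. They were taken on log2(TPM + 1), centred on the median of the 11007 models averaging 10 TPM or more, and 86 members are among them. The rule sets a low mean at stages 0 to 7 and the maximum at stages 14 to 20, so some step up between them had to occur. The 86 also reach their mean mainly through the neurula libraries. The shares of all models therefore stand beside theirs as background and are no like comparison. At stage 12 against stage 10, 75 of the 86 (87.2%) were more than 2-fold higher, against 20.3% of all such models, and 0 of 37 spike-ins moved that far. At stage 14 against stage 12, 25 (29.1%) were higher, against 8.74%. Within the neurula fewer members moved than at the steps before. At stage 16 against stage 14, 3 (3.49%) were higher and 4 (4.65%) lower, where all models had 2.31% higher and 1.49% lower. At stage 18 against stage 16, 7 (8.14%) were higher and 3 (3.49%) lower, against 1.94% and 1.56%.

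The steps after stage 18 are bounded by the rule in the same way. It sets the maximum at stages 14 to 20 and a low mean at stages 26 to 33, so some step down between them had to occur. Here too the shares of all models are background and no like comparison. At stage 20 against stage 18, 9 members (10.5%) were more than 2-fold lower and 0 higher. Of all models 1.51% were lower and 314 of 11007 higher. At stage 23 against stage 20, 41 (47.7%) were lower and 3 higher, against 2.61% of all models lower and 632 of 11007 higher. The members' median step was -0.97 on the log2 scale. At stage 26 against stage 23 22 (25.6%) were lower, against 0.799%, but stage 26 belongs to the rule. At most 1 of the 37 spike-ins moved more than 2-fold at any of these steps.

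The step into gastrulation could not be read in the same way. At stage 10 against stage 9, 73 of the 86 members lay more than 2-fold above the median model, against 10.6% of all models. That median was itself 1.06 lower on the log2 scale, and at stage 10 the pair of on/off models took 36.9% of the total. A member listed at 0 at both stages therefore counted as higher, and 12 of the 86 were so listed. Without centring 35 were higher and with centring on the spike-ins 39.

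**Figure D5:**
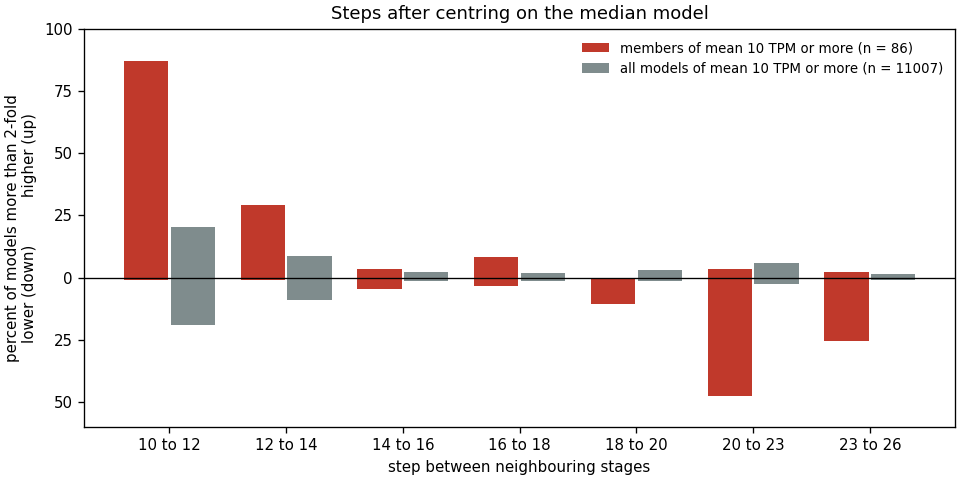
Percent of models more than 2-fold higher (upward bars) or lower (downward bars) at the later stage of each step than at the earlier one, after centring on the median model, for the 86 members and all 11007 models that averaged 10 TPM or more. The members' upward bars are tallest at stage 12 against 10 (87.2%) and their downward bars at stage 23 against 20 (47.7%).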

How the data were processed

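RNA of whole embryos was measured at 18 stages with 1 library each. The submitters' processing notes name CASAVA 1.8.2, Trimmomatic, Bowtie and RSEM, without versions for the last 3. The deposited values are TPM for 31357 gene models and 88 spike-ins. No source used here names the genome build or annotation release. From stage 6 on, the decimals of the deposited spike-in values show that they had been divided by class-specific factors (0.5, 1, 0.67 and 4), so spike-in scaling was run both with these undone and as deposited. Gene-model values were used as deposited.

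The rule was applied to TPM without rescaling. limma 3.58.1 in R 4.3.3 was fitted with an intensity-dependent trend on log2(TPM + 1) to all models with at least 1 TPM in 2 libraries, in 6 stage classes. The fit was also run on simulated data with independent errors. The stages of a class are successive time points instead, so the simulation does not check the p-values on data like these. The named models are the 2 highest members for each peak stage, the 2 highest single-library members and, per contrast, the 2 largest rises and falls with an adjusted p under 0.05, an average of 10 TPM or more in the higher class and no overlap. Alternatives covered the scaling between libraries, limits, pseudocount, filter, classes fitted and libraries left out. The lists of genes by symbol and the tissue markers could not be applied, because 0 identifiers were paired with symbols. The members, lists and rules were chosen with earlier results of these data known.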

Additional observations from a re-analysis of the deposited data

How the results depend on the processing

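Membership depended on the scale and the limits. With spike-in scaling 134 models met the rule (97 of them among the 234), and 129 with the spike-ins as deposited. Limits of 10% gave 105 models and of 30% gave 404. Leaving out 1 library at a time gave 189 (without stage 14) to 323 (without stage 12). Other alternatives, among them median-of-ratios (281) and quantile scaling (340), stayed within 1.5 times. Of the original 234 members, 24 peaked at stage 20 under median-of-ratios scaling, against 39 on unscaled TPM.

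For gastrula against blastula the count higher was 60 of 112 members tested with the 2 classes alone (118 of 213 with all classes) and 28 to 152 over left-out libraries, and the count lower 0 to 3. For late against early neurula the count higher was 2 under quantile normalization, 3 with a pseudocount of 0.1, without a filter, with a filter of 5 TPM or without the trend, 1 with the 2 classes alone (200 members tested) and 0 without the 5 libraries of the on/off pair, where the count lower was also 0. Over left-out libraries it was 0 to 6 higher and 0 to 4 lower. A library left out is a whole stage, so these ranges mix sampling error with development. Both gastrula extremes rest on 1 gastrula library. Calls over all models moved too, so these counts alone show no trait of the members. For gastrula against blastula, 657 models were higher with the 2 classes alone, against 1314 with all classes. For late against early neurula, 267 were higher in the main fit. Quantile normalization gave 158, no filter 378, a filter of 5 TPM 155, no trend 203 and the 2 classes alone 2. A pseudocount of 0.1 gave 265.

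Onset at stages 8 to 10 was found in 63 members at 10% of the maximum and 12 at 50%. Onset at stages 14 to 20 was found in 138 at 50%, and in 43 without the single-library members. Stage 10 against 9 gave 35 members higher without centring, 39 with spike-in centring, 45 of those at 1 TPM or more at either stage and 198 of all 234. Over all 234 members the steps gave 157 higher at stage 12 against 10, 81 higher at 14 against 12, 22 lower at 16 against 14, 24 higher at 18 against 16, 38 lower at 20 against 18, 93 lower at 23 against 20 and 43 lower at 26 against 23. That last step gave 5 of the 86 with spike-in centring. The counts over all 234 were centred on the median of the 11007 models averaging 10 TPM or more. No share over all models was taken for the step counts of this paragraph. They show how the count moved with the set and the centring, and not a trait of the members. The members' median difference between late and early neurula was -0.32 on unscaled TPM, 0.38 with spike-in scaling and 0.37 with the spike-ins as deposited, so its sign turned. Among the named models whose difference was taken under the alternatives, none changed sign. XeXenL6RMv10029970m was not among these. The alternatives without the 5 libraries, with the spike-ins as deposited, without single-library members, over all 234 members and at 1 TPM or more were chosen after seeing the data. The cause of these shifts was not tested. No paired analysis was possible because each stage has 1 library. Depth is unknown, so no counting interval can be given.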

Other observations

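Members with consecutive identifier numbers formed 13 pairs, holding 24 of the 234 (10.3%), against 80 of the 1016 neurula-peaking models that stayed on (7.87%). A larger set holds more such neighbours through its size alone, so these shares are not a like comparison. The share for sets of equal size was not computed. Neighbours could peak at the same stage, as XeXenL6RMv10041931m and XeXenL6RMv10041932m did at stage 18 with 121.5 and 105.0 TPM, or at different ones, as XeXenL6RMv10013284m (688.5 TPM at stage 14) and XeXenL6RMv10013285m (601.8 TPM at stage 16). No source used here says what the numbering follows, and near-identical models can share reads.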
